A study of Mus musculus with 6 samples.

Results

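Histone genes are described here by their RNA levels in primary mouse epidermal keratinocytes (the main cells of the skin's surface layer) after transfection with miR-148a. The members were chosen by name: every mouse gene whose symbol belongs to the Hist1h, Hist2h, Hist3h, Hist4h, H1f, H2af or H3f series, or to the newer series that replaced them. The rule gave 114 symbols, and 108 of these had at least 1 transcript in the authors' deposited table, out of 25108 genes with a transcript there. For 59 of the 108 the authors gave an adjusted p. Of the other members, 36 were listed at 0 and 13 had a value too low to receive an adjusted p. The members fell into 71 replication-dependent genes, nearly all in the histone clusters, and 43 variant genes outside them. Newer symbols are used below, with the older symbol in parentheses at first mention.

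All cells were wild-type C57BL/6 keratinocytes from the skin of pups aged 1 to 3 days, grown in medium with 0.05 mM calcium. The control group received a control small RNA (labelled miR-Control) and the miR-148a group pro-miR-148a, both at 200 nM, and total RNA was taken 48 h later. Each group had 3 RNA sequencing libraries, which the labels do not tie to separate cultures or animals, so the p-values may measure technical spread only. The authors' deposited table holds no value per library. Whether the libraries of the groups overlap therefore cannot be given for any gene, and the error of each value is the authors' standard error (SE) of the log2 fold change. The depth of each library is unknown.

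DNA is wrapped around octamers of the core histones H2A, H2B, H3 and H4, and the linker histone H1 binds where the DNA enters and leaves. Replication-dependent histone genes, mostly clustered and without introns, are transcribed in bulk during S phase, and their mRNAs classically end in a short stem-loop in place of a poly(A) tail. Variant histone genes are expressed throughout the cell cycle and give polyadenylated mRNAs, and their products mark particular regions or states of chromatin, with H3.3 filling nucleosomes outside replication and H1.0 known to accumulate in cells that leave the cycle. Whether the libraries were made from poly(A)-selected RNA is not stated in the sources used, and the level of a stem-loop mRNA depends on that choice.

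The sequence that sets the direction of every value below is that of the microRNA (RefSeq), with its seed (bases 2 to 8, which pair with target mRNAs) in capitals. The same lines give the 3 forms of target site in the letters of the mRNA's DNA copy. All are shown because the group in the numerator of the fold changes is unnamed in the authors' deposited table.
mmu-miR-148a-3p: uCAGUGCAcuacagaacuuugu
7mer-m8 site: TGCACTG
8mer site: TGCACTGA
7mer-A1 site: GCACTGA

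Genes with a site in the 3' untranslated region (UTR) had the higher values as deposited: the median log2 value was 0.10 for the 436 tested genes with an 8mer and -0.02 for the 6065 with no site. Since microRNAs lower the mRNAs they pair with, the values were read as control over miR-148a and their sign was turned. Positive values below thus mean more RNA with miR-148a. Every direction rests on this reading and would turn together with it, and the site medians are no independent support for any direction. Among the histone genes, sites of at least 7 bases were found in 4. These are shown from GENCODE M21 with 10 bases on each side, the site in capitals. The site of H1f3 lies beyond the end of its RefSeq transcript, which has 776 bases in all.
H1f3 (7mer-m8, from base 2756 of a 3' UTR of 4931 bases): tatccatacaTGCACTGctcatgattt
H2bc6 (8mer, from base 1845 of 1906): gaacctgctgTGCACTGAaatgtgtact
H2aj (7mer-A1, from base 803 of 1345): ctcttatccaGCACTGAttctgagaat
Macroh2a1 (7mer-A1, from base 198 of 608): ttttctgttaGCACTGAtagccggcat

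None of these 4 genes was called changed. In the authors' deposited table, H1f3 (Hist1h1d), a linker histone gene, had a log2 fold change of -0.17 ± 0.38 (SE), and H2aj (H2afj), the gene of the variant H2A.J, one of 0.11 ± 0.07. H2bc6 (Hist1h2be) had no adjusted p and Macroh2a1 (H2afy) was listed at 0. None of the 12 called members had a site of 7 or 8 bases, and H3f3a and H3f3b had only the 6-base core of one. Most tested genes lack such a site as well: 436 had an 8mer, 1144 a 7mer-m8 and 693 a 7mer-A1, beside 1629 with the core alone and 6065 with none. Whether any member is a direct target was not tested.

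By the authors' adjusted p at 0.05, 12 of the 59 tested histone genes were called, or 20.3%, against 33.5% of the 11035 genes tested. Of the 12, 7 rose with miR-148a and 5 fell, where 16.7% of all tested genes rose and 16.8% fell. The median log2 fold change of the tested histone genes was 0.12, with a range of -1.71 to 0.92, beside a median of -0.01 for all genes. The replication-dependent genes gave 3 higher and 4 lower of 51 tested (13.7% called, median 0.10). The sign of that median depended on the genes kept: it was -0.10 without the genes that share over 50% of their 50-base stretches with other genes' transcripts, and 0.26 for the 6 genes with a base mean of 100 or more. Those 6 genes were split, with 3 positive and 3 negative values from -0.86 to 0.77. The variants gave 4 higher and 1 lower of 8 tested (62.5% called, median 0.22).

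**Figure D1:**
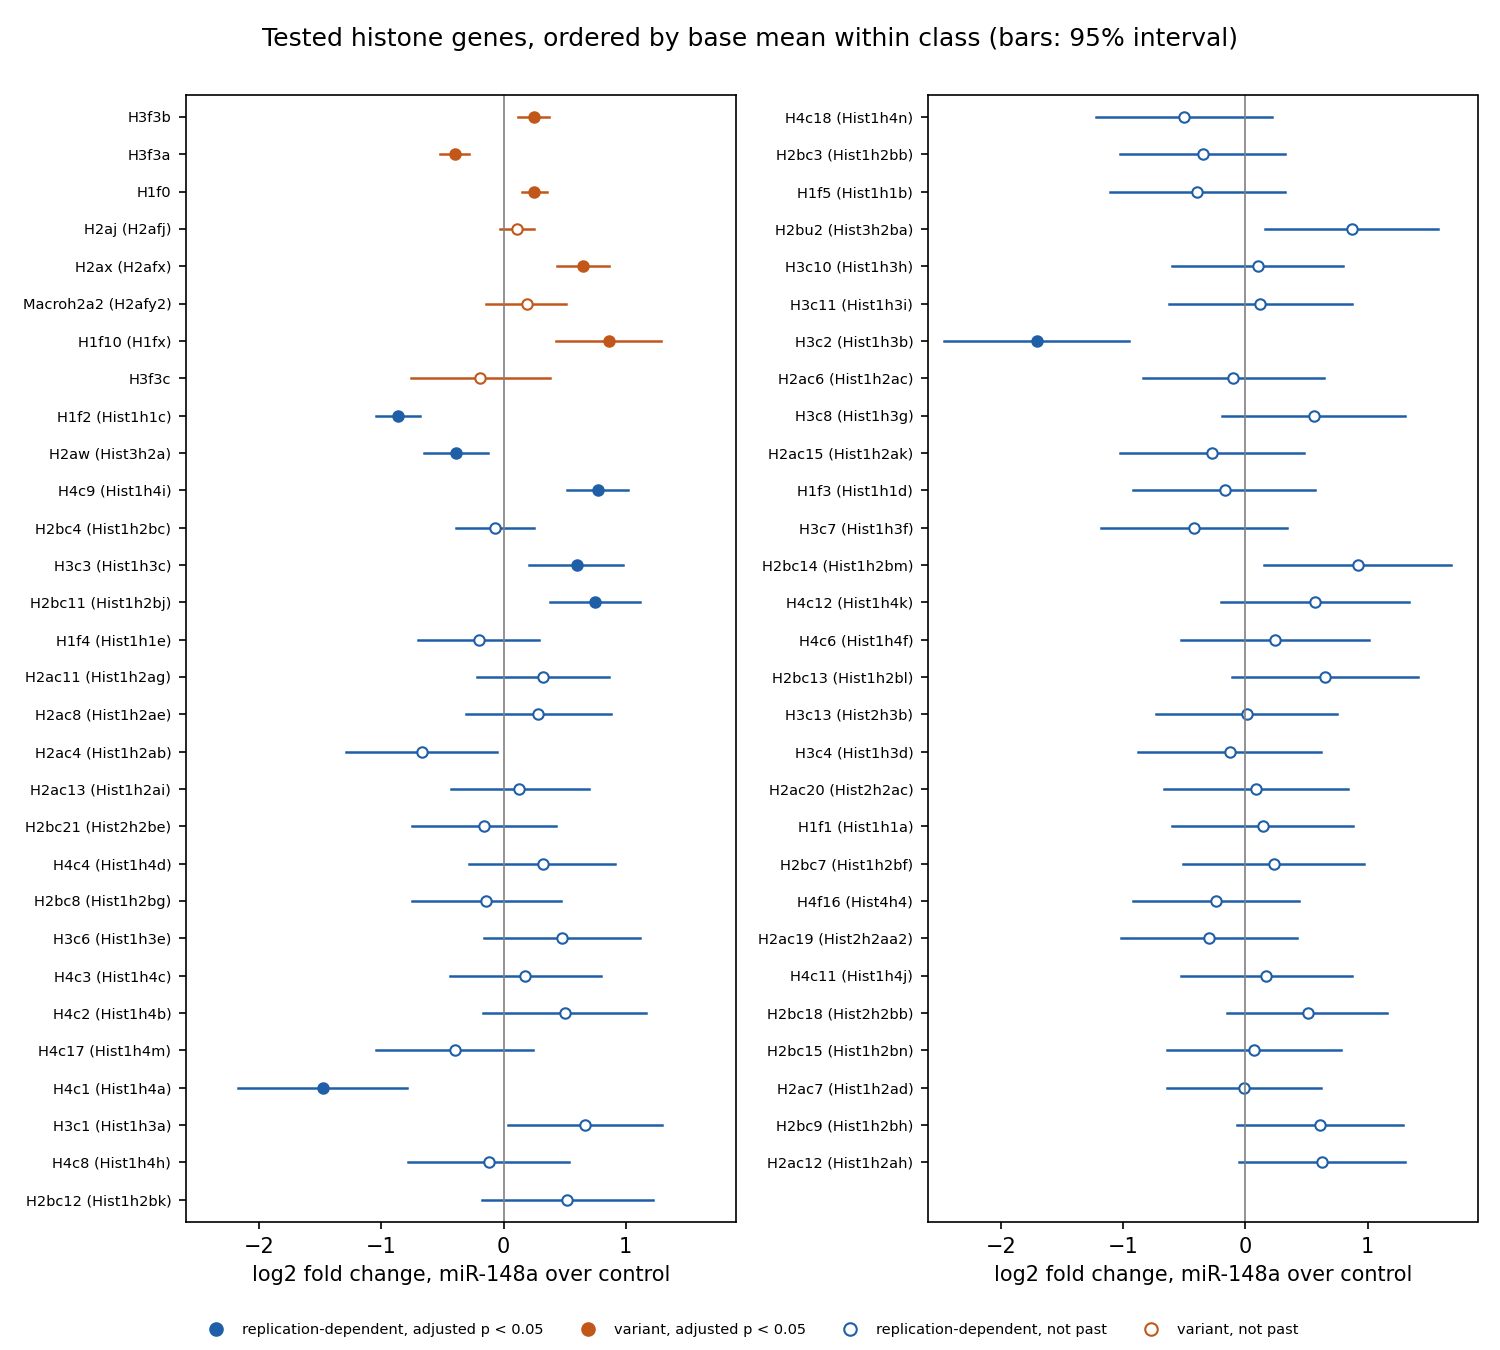
Log2 fold change (miR-148a over control, horizontal axis) of each of the 59 tested histone genes, variants first and then replication-dependent genes, each class in order of base mean. Points are the authors' values with the sign turned, bars the 95% interval from the authors' SE, filled points passed an adjusted p of 0.05. Intervals are narrow for the abundant variants and wide for most replication-dependent genes, and H3c2 and H4c1 lie farthest from 0.

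These shares have to be read by abundance. The base mean is the authors' mean normalized count over the libraries, and most replication-dependent transcripts were weakly counted: their median base mean was 24.9, against 8471 for the tested variants and 228.4 for all tested genes. Below a base mean of 100, 2 of 46 histone genes were called (4.35%), against 11.0% of all tested genes there. At 100 or more, 10 of 13 histone genes were called (76.9%), against 49.7%. The replication-dependent genes had 5 of 6 called in the upper range and 2 of 45 (4.44%) in the lower one.

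Precision followed abundance in the same way. The median SE was 0.35 for replication-dependent genes and 0.09 for variants, and no SE in the authors' deposited table exceeded 0.39. H2bc14 (Hist1h2bm), an H2B gene with a base mean of 15.7, would have needed a log2 fold change of 0.94 to pass, and H3f3b one of 0.15. Over the 45 replication-dependent genes with a base mean under 100 the smallest value that would have passed lay between 0.61 and 0.95, so smaller changes were not detectable there. Standard errors that stay this low at very small counts are seen where a fit draws fold changes towards 0. Whether the authors' fit did so is not stated in the sources used, and if it did, the folds of weakly counted genes are understated.

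**Figure D2:**
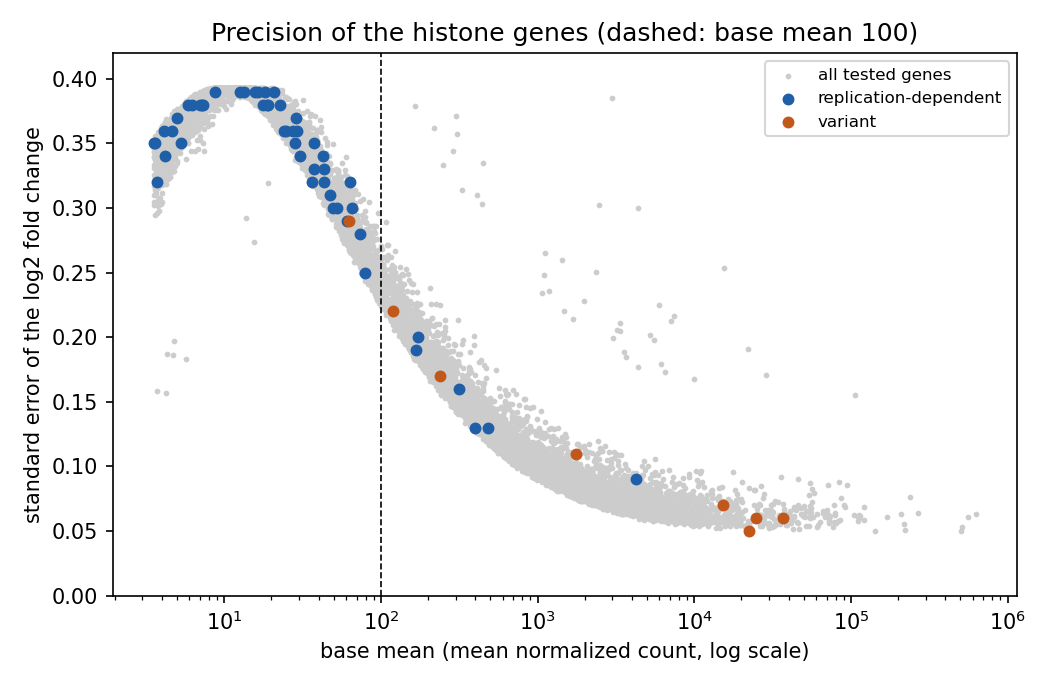
Standard error of the log2 fold change (vertical axis) against base mean (horizontal log axis) for all tested genes in grey, replication-dependent histone genes in blue and variants in orange. All but 6 of the 51 replication-dependent genes lie left of the dashed line at a base mean of 100, where the standard error of most genes is above 0.2.

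**Figure D3:**
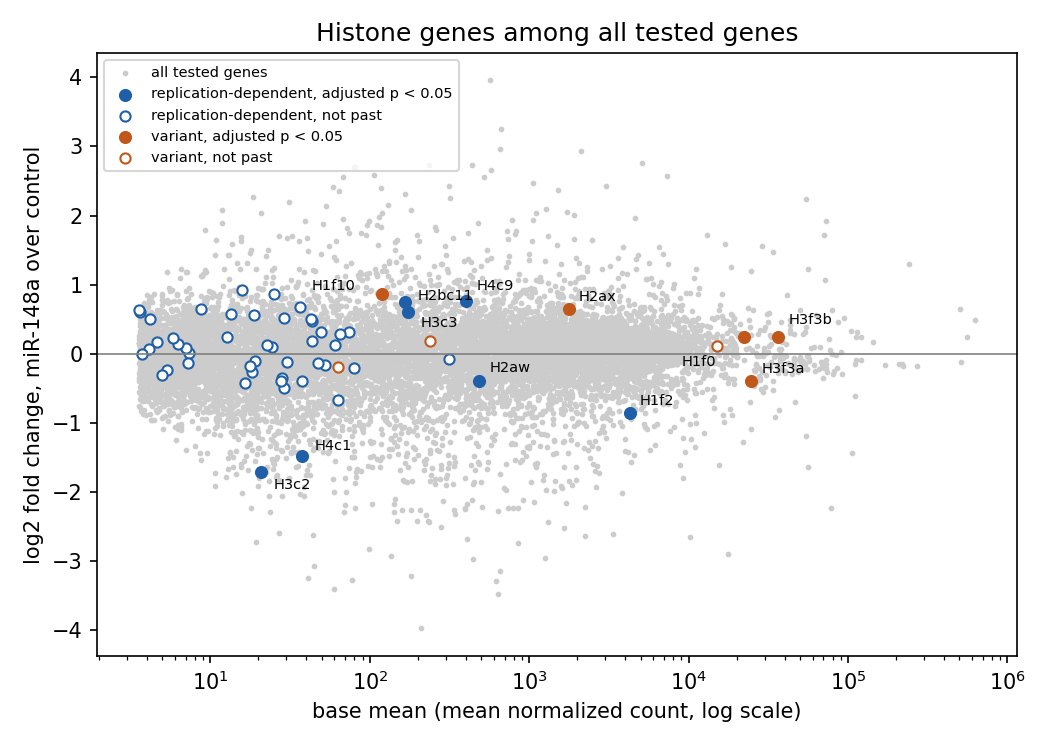
Log2 fold change (vertical axis, miR-148a over control) against base mean (horizontal log axis), with all tested genes in grey and the histone genes in colour, filled where the adjusted p was under 0.05. The called members are named, and 10 of the 12 have a base mean of at least 100.

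The genes of the replacement histone H3.3, one called lower and the other higher, parted. H3f3a and H3f3b encode the same protein from different chromosomes. In the authors' deposited table, H3f3a (NM_008210, base mean 24705) fell by 0.40 on the log2 scale (SE 0.06, adjusted p = 1.57e-09), a 1.32-fold change. H3f3b (NM_008211, base mean 36648) rose by 0.25 (SE 0.06, adjusted p = 5.10e-04), a 1.19-fold change. Their 95% intervals, -0.52 to -0.28 and 0.12 to 0.37, did not overlap.

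Group levels can be worked out from the base mean and the fold change of each gene, taking the groups as equal in weight. These levels carry no error of their own. If the authors' fit drew folds towards 0, the levels given for weakly counted genes lie too close together. H3f3a went from 28073 normalized counts in the control group to 21337 with miR-148a, and H3f3b from 33511 to 39785. In counts, the sum of both was 61584 in the control group and 61122 with miR-148a, a ratio of 0.992. The part of it from H3f3a went from 45.6% to 34.9%. Per kilobase, the sum went from 26696 to 27473, a ratio of 1.03, and the part from H3f3a from 37% to 27.3%. H3f3a is the longer transcript, with 2841 bases against 1993 in GENCODE M21, and the values per kilobase of this pair rest on those lengths. The order of the genes per kilobase was thus the same, with 18388 for H3f3b and 8696 for H3f3a. Of the H3f3a transcript, 30.3% of all 50-base stretches also occurred in transcripts of other genes, among them processed copies of it, and 10.6% of those of H3f3b did. H3f3c, a copy without introns that shares 73.8% of its stretches, had a base mean of 62.9 and a log2 fold change of -0.19 ± 0.29 (SE, adjusted p = 0.695).

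**Figure D4:**
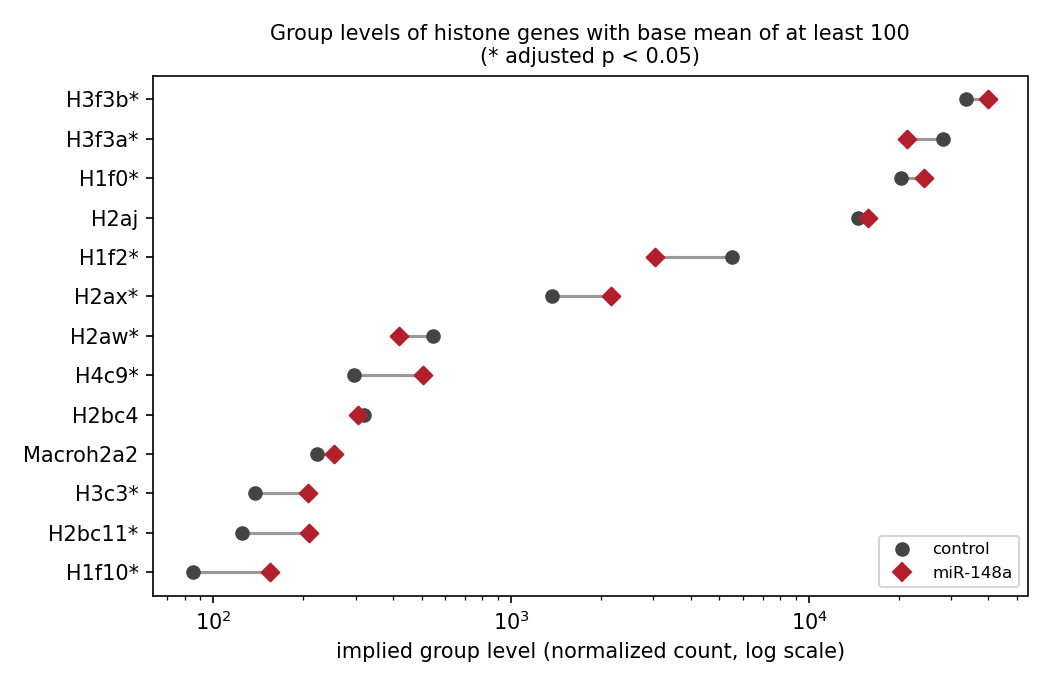
Group levels worked out from base mean and fold change (horizontal log axis, normalized counts) for the 13 histone genes at base means of 100 or more, control as grey circles and miR-148a as red diamonds. Stars mark an adjusted p under 0.05. H3f3a and H1f2 shift to lower levels, H3f3b, H1f0, H2ax and H4c9 to higher ones, and H2aj and H2bc4 barely shift.

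The linker histone genes parted too. H1f2 (Hist1h1c, NM_015786), the replication-dependent gene of H1.2 and by far the most abundant of its class, fell by 0.86 on the log2 scale (SE 0.09, adjusted p = 2.37e-19), from 5508 to 3027 normalized counts. This was the lowest adjusted p of the histone genes in the authors' deposited table. H1f0 (NM_008197), the variant gene of H1.0, rose by 0.25 (SE 0.05, adjusted p = 2.77e-05), from 20398 to 24309. H1f10 (H1fx, NM_198622), the variant gene of H1.10 and a weakly counted one, rose by 0.86 (SE 0.22, adjusted p = 5.62e-04), from 85.3 to 154.8.

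Both tested linker variants were thus higher, and no tested replication-dependent H1 gene was called higher. In counts, H1f0 and H1f2 summed to 25906 in the control group and 27337 with miR-148a, and the part from H1f2 went from 21.3% to 11.1%. Per kilobase of the RefSeq transcripts (2293 and 725 bases) the sum went the other way, from 16493 to 14777, and the part from H1f2 went from 46.1% to 28.3%. GENCODE M21 gives 2055 bases for H1f0 and 1560 for H1f2. The sum was not computed on those lengths, so its direction per kilobase holds for the RefSeq lengths only. The other 4 tested replication-dependent H1 genes did not pass: H1f4 (Hist1h1e) had -0.20 ± 0.25 at a base mean of 79.4, H1f5 (Hist1h1b) -0.40 ± 0.36, H1f3 -0.17 ± 0.38 and H1f1 (Hist1h1a) 0.14 ± 0.38 in the authors' deposited table. Of the 50-base stretches of H1f2, 8.54% occurred in other transcripts.

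Among the H2A variants, H2ax (H2afx, NM_010436), whose protein is phosphorylated beside DNA breaks, rose by 0.65 in the authors' deposited table (SE 0.11, adjusted p = 1.7e-08), from 1375 to 2159 normalized counts. H2aj, the fourth most abundant histone gene with a base mean of 15175, did not pass (adjusted p = 0.287), with a 95% interval of -0.03 to 0.25. Macroh2a2 (H2afy2), one of the macroH2A genes linked with silent chromatin, did not pass either, at 0.19 ± 0.17 (SE, adjusted p = 0.452). The 3 tested H2A variants had positive values, with 1 called.

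Several well-known variants could not be read from this table. H2az1 (H2afz) and H2az2 (H2afv), the genes of H2A.Z, had base means of 2.13 and 1.96, and all 4 transcripts of Macroh2a1 were listed at 0. Cenpa, the centromere H3 variant outside the naming rule, had a base mean of 0.344. Each of these genes has 2 or more transcripts. In the authors' deposited table, 73.9% of the transcripts of such genes were listed at 0, against 34.5% of those of genes with 1 transcript, so these values are no measure of absence. Of the 9 histone genes with 2 or more transcripts, 1 was tested (H2bc4), against 58 of the 99 with 1. Of the 29 histone genes known for their expression in the germ line, 27 were listed at 0, 2 had no adjusted p, and none was tested. Of all 25108 genes, 9296 were listed at 0. Some of the germ line genes, such as H2al1c and H2al2b, share 100% of their 50-base stretches with transcripts of other genes, and others, such as H1f7 (H1fnt) and H1f8 (H1foo), share 0%. For the former a 0 is no measure of absence either.

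The tested replication-dependent genes together made up 6.46% of the summed histone base means. H3f3b, H3f3a, H1f0 and H2aj held 33.9%, 22.9%, 20.7% and 14% of that sum, and H1f2 alone 3.95%. In counts, without regard to transcript length, the summed level of the replication-dependent genes went from 8111 to 5851, a ratio of 0.721, of which H1f2 alone accounted for 5508 and 3027. Without H1f2 the sum went from 2603 to 2824, a ratio of 1.08. The summed variants went from 98339 to 103801 (1.06), and all tested histone genes from 106450 to 109652 (1.03).

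Among the H2A genes of this class, 11 were tested and 1 fell. H2aw (Hist3h2a, NM_178218), from the small Hist3 cluster, fell by 0.39 in the authors' deposited table (SE 0.13, adjusted p = 0.0133), from 547.7 to 418.9. It is the called member nearest the threshold. The other 10 lay between -0.67 for H2ac4 (Hist1h2ab, SE 0.32, adjusted p = 0.0934) and 0.63 for H2ac12 (Hist1h2ah, SE 0.35, adjusted p = 0.166), and the median of the 11 was -0.01.

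Among the H2B genes, 13 were tested and 1 rose. H2bc11 (Hist1h2bj, NM_178198) rose by 0.75 in the authors' deposited table (SE 0.19, adjusted p = 4.64e-04), from 124.4 to 209.2. Of its 50-base stretches, 59.4% also occurred in transcripts of other genes, all of these in H2bc23 (Hist1h2bq), which was listed at 0. The median of the H2B genes was 0.51, the highest of the 5 histone types, with positive values for 9 of 13. Every tested H2B gene that shared as large a part of its stretches as H2bc11, or a larger one, was positive. The 4 negative H2B genes all shared less, at most 49.7%. Positive values were also found at lower sharing, up to 0.92 for H2bc14, which shared 43.8%. Among the tested H2B genes that shared under 50%, these 4 negative ones outnumbered the positive ones, H2bu2 (0.87), H2bc14 (0.92) and H2bc9 (Hist1h2bh, 0.61). The positive sign of the H2B median thus rests on genes of many shared stretches. The nearest genes outside the threshold were also H2B genes. H2bu2 (Hist3h2ba) had 0.87 ± 0.36 (SE, adjusted p = 0.0526) at a base mean of 24.9, and H2bc14 had 0.92 ± 0.39 (adjusted p = 0.0579). H2bc4 (Hist1h2bc), the most abundant H2B gene with a base mean of 313.0, had -0.07 ± 0.16 (adjusted p = 0.812).

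The H3 and H4 genes of the clusters each had 1 gene in each direction. For H3, 10 genes were tested with a median of 0.11. H3c3 (Hist1h3c, NM_175653) rose by 0.60 in the authors' deposited table (SE 0.20, adjusted p = 0.00958), from 137.7 to 208.3. H3c2 (Hist1h3b, NM_178203) fell by 1.71 (SE 0.39, adjusted p = 6.76e-05), from 32 to 9.76 normalized counts. That 3.28-fold change was the largest of the histone genes, on 1 of their smaller base means, 20.9. H3c2 shares 60.4% of its 50-base stretches with other transcripts, and the gene closest to H3c3, which moved the other way, is H3c2 itself, with 41.8% of the stretches of H3c3.

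For H4, 12 genes were tested with a median of 0.17. H4c9 (Hist1h4i, NM_175656), the most abundant H4 gene, rose by 0.77 in the authors' deposited table (SE 0.13, adjusted p = 2.57e-08), from 295.6 to 504.4. H4c1 (Hist1h4a, NM_178192) fell by 1.48 (SE 0.35, adjusted p = 1.66e-04), from 55 to 19.8. All H4 genes encode the same core protein, so their coding parts resemble each other, and 28.9% of the stretches of H4c9 and 40.4% of those of H4c1 occurred in other transcripts. Over all tested replication-dependent genes the median was 49.5%, with 3 genes sharing none and 24 of 51 above 50%. It was 12.3% for the variants. How reads in shared stretches were assigned is not stated in the sources used, so values of single cluster genes are uncertain to that extent.

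The Hist1 cluster, the main one, lies on chromosome 13 and had 55 genes in the table, 43 tested, 3 higher and 3 lower. Read in order along the chromosome (RefSeq, GRCm38.p6), 4 of the 6 called genes lay within a run of 8 neighbours, chosen after the values were seen: H1f2 at place 44, H3c3 at 45, H2bc3, H2ac4, H3c2 at 48, H4c2, H4c1 at 50 and H3c1. In that run H1f2, H3c2 and H4c1 fell and H3c3 rose, and the 4 others, none past the threshold, had values from -0.67 for H2ac4 to 0.67 ± 0.32 for H3c1 (Hist1h3a, adjusted p = 0.104). H4c9 and H2bc11, both higher, lay at places 21 and 23 with H2ac11 between them. The Hist2 cluster had 5 tested genes, of which none was called by the authors' adjusted p and none had an unadjusted p under 0.05. The single Hist4 gene, H4f16 (Hist4h4), had -0.24 ± 0.35.

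Many H2A and H2B genes lie head to head and share the stretch between their starts. Pairs with starts within 500 bases and both genes tested numbered 6, and 3 of them had the same sign in both genes. H2bc11 was the only called gene among them, and its partner H2ac11 (Hist1h2ag) had 0.32 ± 0.28 in the authors' deposited table, with 249 bases between the starts. H2ac12 and H2bc12 (Hist1h2bk) had 0.63 ± 0.35 and 0.52 ± 0.36. In H2ac8 (Hist1h2ae) and H2bc8 (Hist1h2bg) the values were 0.28 ± 0.30 and -0.14 ± 0.31, neither past the threshold.

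The promoters show what the replication-dependent genes share apart from their names. Motifs were searched on both strands from 250 bases before to 50 bases after the start in the RefSeq promoters of GRCm38.p6, which held 62 replication-dependent genes, 37 variants and 27025 genes in all. The TATA box TATAAA was in 56.5% of the replication-dependent promoters, 10.8% of the variants and 15.7% of all. CCAAT was in 85.5%, 37.8% and 41.1%, and by type it was in every H1, H2A, H2B and H3 promoter of the clusters and in 3 of 12 H4 promoters. The octamer ATTTGCAT, a binding motif of Oct-1 known from H2B promoters, was in 22.6%, 2.7% and 1.97%, and within the clusters only in promoters of H2A (7 of 18) and H2B (7 of 16). Starts of the 6 head-to-head pairs above lay 164 to 249 bases apart, so the same motif could count for both genes of a pair. The octamers of the 5 tested H2B genes that hold one are shown with their surroundings, to set beside the H2B values, with the motif in capitals, in the direction of the gene (GRCm38.p6, all on the plus strand).
H2bc18, chr3:96269642-96269669: gtgaaacctcATTTGCATacaagctcta
H2bc14, chr13:21722009-21722036: tctcgtctctATTTGCATaacagcgtgt
H2bc12, chr13:22035781-22035808: atttcactttATTTGCATacgaagttct
H2bc8, chr13:23571331-23571358: tgagtcccttATTTGCATagaacctcta
H2bc3, chr13:23746634-23746661: tgagtctcttATTTGCATaaagcctttg

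The 5 genes with these octamers had log2 fold changes of 0.51 ± 0.34, 0.92 ± 0.39, 0.52 ± 0.36, -0.14 ± 0.31 and -0.35 ± 0.35 in the authors' deposited table, in the order of the lines. None passed, and 3 of the 5 were positive. Of the other H2B genes with the octamer, H2bc6 had no adjusted p and H2bc1 was listed at 0. The promoter of H2bc11, the H2B gene that rose, held CCAAT and no ATTTGCAT in this window. Of the 7 called replication-dependent genes, 3 had TATAAA (H4c9, H3c2 and H4c1), 6 had CCAAT and 1 had the octamer (H2aw). Among the called variants, H3f3b had all 3 motifs, H3f3a had CCAAT alone, and H1f0 and H1f10 had none of the 3. H2ax, also called, had no promoter in the set searched. None of the 3 motifs contains another, and a match of letters is not a bound site.

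The 3' ends hold the other shared feature, the histone stem-loop, which binds SLBP and directs cleavage of the message without a poly(A) tail. It was searched in GENCODE M21 3' UTRs of at least 50 bases as 6 paired bases opening with GG around a loop of 4 bases opening with TT. It was found in 43 of the 50 replication-dependent genes assessed (86%), 2 of 25 variants (8%) and 47 of the 20759 other genes (0.226%). The stem-loops of the called genes follow, paired bases in capitals, to show that genes called in opposite directions carry the same element.
H1f2, lower: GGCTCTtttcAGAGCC
H2aw, lower: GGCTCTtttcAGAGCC
H3c2, lower: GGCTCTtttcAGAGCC
H2bc11, higher: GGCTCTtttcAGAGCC
H3c3, higher: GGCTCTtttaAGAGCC
H4c9, higher: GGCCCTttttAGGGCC
H2ax, higher: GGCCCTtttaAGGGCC

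H1f2, H2aw and H3c2, which fell, and H2bc11, which rose, had the same 16 letters. H4c1 was the called replication-dependent gene in which none was found, in a 3' UTR of 154 bases. H2ax, counted here as a variant, carried one, as H2AX messages are known to exist in both a stem-loop and a polyadenylated form.

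The annotated length of message past the loop differed widely. In 18 of the 43 replication-dependent genes with a loop the GENCODE transcript ended within 50 bases of it, and in 25 it ran on for more, with a median of 454.0 bases. In the first set the highest base mean was 166.8, and 1 of 15 tested genes was called, H2bc11. In the second, with 4 genes whose base mean reached 100, 5 of 20 were called, 2 higher and 3 lower. Over all tested genes 33.5% were called, 49.7% at a base mean of 100 or more and 11.0% below it. In both sets every gene with a base mean of 100 or more was called, and below it H3c2 alone. The counts thus follow abundance, and a tie to the length past the loop was not tested. H2aw ran on for 1643 bases, H1f2 for 840, H4c9 for 330, H3c3 for 74 and H3c2 for 51. A poly(A) signal near the end was found in 11 of the 25 and in 1 of the 18. Median base means were 28.5 in the first set and 19 in the second.

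The models differ between annotations. RefSeq gives H1f2 as 725 bases, H2aw as 508 and H4c9 as 403, where GENCODE gives 1560, 2146 and 727. The authors' table is built on RefSeq identifiers, and whether reads past the loop were counted in these genes is not stated in the sources used. The stretches that H2aw shares with another gene, 31.5%, are all shared with Trim17, a neighbour whose transcript overlaps it, and were measured on the longer GENCODE model. Per kilobase of the RefSeq transcript, H1f2 had 5886 normalized counts, H4c9 992.6 and H2aw 951.4, against 9749 for H1f0, 8306 for H2aj and 1296 for H2ax.

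Genes that act on histones or beside them in S phase were taken as 3 lists, which overlap in 6 genes (Ccne1, Ccne2, Cdk2, E2f1, Mcm2 and Slbp). The first holds 42 chaperone and deposition genes, which carry new histones to DNA. Of its 36 tested genes 15 rose and 1 fell (44.4% called, beside the 33.5% of all genes), with a median log2 fold change of 0.21. At a base mean of 100 or more, 16 of 30 were called (53.3%), close to the 49.7% of all genes there. In the authors' deposited table, Asf1b, which hands H3 and H4 to CAF-1 in dividing cells, rose by 0.84 (SE 0.10, adjusted p = 2.21e-14). Oip5, which helps load the centromere variant, rose by 0.55 (SE 0.16), and Hat1, which acetylates new H4, rose by 0.54 (SE 0.07). Chaf1a and Chaf1b, subunits of CAF-1, rose by 0.51 (SE 0.08) and 0.42 (SE 0.10). Hira and Atrx, which place H3.3 outside S phase, had 0.09 ± 0.08 and -0.09 ± 0.07 and did not pass. Npm3, a nucleoplasmin, fell by 0.49 (SE 0.07), and Supt6 and Rbbp4, the most abundant genes of the list that did not pass, had 0.14 ± 0.06 and 0.13 ± 0.06.

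The second list holds 49 S phase replication genes. Of its 32 tested genes 15 rose and 1 fell (50% called, beside 33.5%), with a median of 0.30. At a base mean of 100 or more, 16 of 26 were called (61.5%, beside 49.7%). By direction these were 15 higher and 1 lower, again beside 1693 higher and 1499 lower of all 6420 genes there. In the authors' deposited table, Rrm2 of ribonucleotide reductase rose by 1.01 (SE 0.07, adjusted p = 5.52e-43), Ccne1, cyclin E1, by 0.78 (SE 0.15) and the primase gene Prim2 by 0.69 (SE 0.12). Cdt1 and Pold1 were the most abundant that did not pass, at -0.01 ± 0.11 and 0.21 ± 0.10. The median of 0.30 stands beside 0.10 for the replication-dependent histone genes, whose median SE was 0.35 against 0.12. At a base mean of 100 or more the medians were 0.40 and 0.26, the latter from 6 genes, 3 positive and 3 negative. Without the genes of many shared stretches the histone median was -0.10.

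The third list holds 43 genes of histone mRNA synthesis and 3' processing. Of its 27 tested genes 4 rose and 2 fell (22.2% called, beside 33.5%), with a median of 0.08. At a base mean of 100 or more, 6 of 22 were called (27.3%, beside 49.7%). Besides Ccne1, Snrpb rose by 0.51 in the authors' deposited table (SE 0.07, adjusted p = 2.1e-13), Cpsf2 by 0.24 (SE 0.07) and Snrpe by 0.23 (SE 0.07). Snrpb and Snrpe encode Sm proteins of small nuclear RNPs and Cpsf2 a cleavage factor subunit, all of which serve other RNAs as well. Nfyb, a subunit of the CCAAT-binding factor, fell by 0.44 (SE 0.09, adjusted p = 2.5e-06) and Lsm11, a protein of the U7 RNP specific to histone mRNA ends, by 0.28 (SE 0.11, adjusted p = 0.0437). The call of Lsm11 was lost with no filter on low means (adjusted p = 0.0663), with recentred fold changes (0.0521) and at a threshold of 0.01. Npat, the activator of histone gene transcription, did not pass at 0.19 ± 0.08 (adjusted p = 0.0734), nor did Ncbp1 at 0.06 ± 0.06 and Yy1 at -0.10 ± 0.07. Slbp, with 3 transcripts, was listed at 0 in all of them, so the stem-loop binding protein gave no value.

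**Figure D5:**
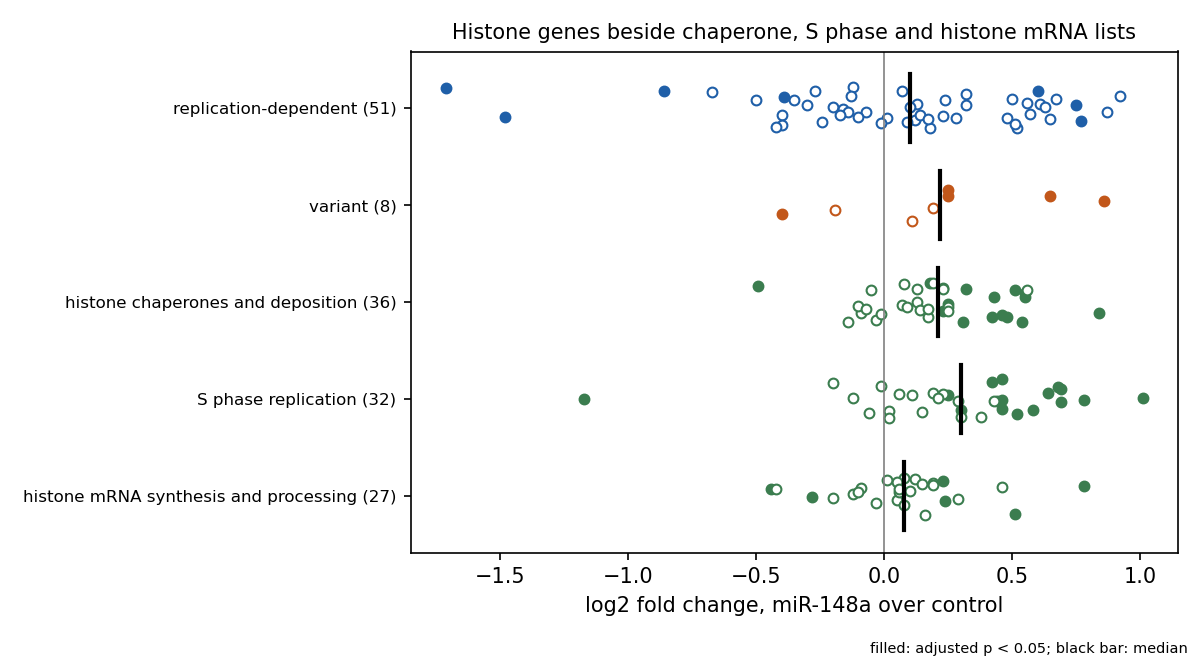
Log2 fold change (horizontal axis, miR-148a over control) of each tested gene of the histone classes and of 3 lists of genes that act on histones or in S phase, with the number tested in parentheses. Filled points had an adjusted p under 0.05 and black bars are medians. The medians of the chaperone and S phase lists, 0.21 and 0.30, lie to the right of that of the replication-dependent genes, 0.10 (-0.10 without the genes of many shared stretches), whose points spread most widely.

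The labelled cell type was checked against markers. Of 6 keratinocyte markers 5 were tested. In the authors' deposited table, Krt5, the basal keratin, was at a base mean of 630448 and rose by 0.49 (SE 0.06). Epcam fell by 1.21 (SE 0.06), and Cdh1 and Dsp, of cell junctions, fell by 0.21 and 0.18 (SE 0.06 each, adjusted p = 0.00385 and 0.0161). Krt14 did not pass at 0.10 ± 0.32, and Trp63, with 8 transcripts, was listed at 0. The summed keratinocyte markers went from 863056 to 1028887 normalized counts, a ratio of 1.19, with Krt5 making up most of both. Markers of other cells were present at lower levels. Of 8 tested fibroblast markers 5 fell and none rose, with log2 fold changes from -0.85 to -0.13, and their summed level went from 28854 to 21256 normalized counts, a ratio of 0.737. Pdgfrb was listed at 0 in this list. The summed melanocyte markers went from 15818 to 14955, with 1 of 5 tested genes lower (Mlana) and Tyrp1 listed at 0. The summed immune markers went from 109.4 to 17.6, both tested genes (C1qa and Lyz2) being lower and Ptprc, Cd207 and Cd74 listed at 0. The summed endothelial markers went from 247.5 to 837.6, with Kdr higher, Vwf lower and Pecam1 listed at 0. The part of these cells in the histone values was not tested, and in bulk RNA fewer cells of a type and less RNA per cell cannot be told apart.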

How the data were processed

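RNA was sequenced from 3 control and 3 miR-148a libraries, grouped by their treatment label. DESeq2 and the build mm9 are named without version or role, per the submitters' processing notes. The aligner, counter, annotation and library selection are not stated in the sources used. Per the file headers, the authors' table gives each of 42885 RefSeq transcripts the following: its base mean, which is a signal (normalized counts averaged over libraries), the log2 fold change and SE, a Wald score, and p-values before and after adjustment. The authors' deposited GO table holds gene counts and p-values per category. Without values per library no new test was possible, so each call is an authors' adjusted p under 0.05, adjusted over 11757 transcripts.

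Transcripts were matched to symbols through RefSeq (42734 of 42885), and each gene is represented by its transcript with the highest base mean. Signs were turned as described above. Intervals are 1.96 SE on each side. Group levels follow from base mean and fold change. Shared stretches are 50-base runs of a gene's GENCODE transcript found in transcripts of other genes, on either strand. Tools were Python 3.11.15, pandas 2.3.3, numpy 2.4.6, SciPy 1.17.1 and Matplotlib 3.10.9. Sequences come from RefSeq (GRCm38.p6) and GENCODE M21, and no mm9 coordinate was used. A recentred Wald test was tested on simulated data: of 200 genes changed by a log2 of 1 among 11035, 68% were recovered, and 8.11% of its calls were false. That false share lies above the 0.05 of the threshold. The simulation added a common shift to all genes and changed 200, where 3699 of the 11035 were called in the data. Its shares need not hold there.

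Members, lists and tests were chosen with earlier results of these data known. The named genes are all called histone genes, the 5 most abundant of each class, the genes nearest the threshold, and from each list the 4 largest called changes and the 2 most abundant genes not called, with Cenpa. Of the list genes this rule names, 2 are not reported here. Other genes (Macroh2a2, H3f3c, the H1 genes that did not pass, H2ac4, H2ac12, H2bc9, H2bc14, the neighbours, pairs, site and octamer genes, Chaf1a, Chaf1b, Hira, Atrx, Npm3, Cpsf2, Snrpe, Npat and the markers) were chosen after their values were seen. Of the alternatives, 6 were planned and 2, genes with 1 transcript only and members with under 50% of shared 50-base stretches, were added after seeing the data.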

Additional observations from a re-analysis of the deposited data

How the results depend on the processing

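No paired analysis was possible because the authors' deposited table has no values per library, and for the same reason no library could be left out, no other normalization tried and no counting interval given. The alternatives reuse the authors' fold changes, so they bear on calls and not on directions. Those that keep genes by base mean, by 1 transcript or by shared stretches only leave genes out, so no gene's call could change in them. They make up 29, 31 and 30 of the 249 recomputed values of 32 named genes, and the last leaves out H2bc11 and H3c2. Of the 249, 240 stayed on their side of the threshold, these included, 4 lost the call and 5 gained one. At an adjusted p of 0.01, H2aw (0.0133) lost its call, as did Lsm11, and the histone mRNA list had 1 gene lower in place of 2. Lsm11 also lost it with no filter on low means (0.0663) and with fold changes recentred on the median of all genes (0.0521), which again leaves 1 lower in that list. At a threshold of 0.1, 5 replication-dependent genes were higher in place of 3, H2bu2 among them. H2bu2 passed with recentring too (0.0466). With genes of a base mean of at least 100 alone, 3 histone genes and 2 replication-dependent genes were lower, in place of 5 and 4, since H3c2 and H4c1 are left out by construction. Of 144 recomputed counts and medians, 6 counts moved by over 1.5 times, those given above. The median of the replication-dependent genes moved by less than their median SE but changed sign, from 0.10 to -0.10, without the genes of many shared stretches, and was 0.26 at a base mean of at least 100, where that of the S phase list went from 0.30 to 0.40. Low counts limit the replication-dependent genes most: only 6 of the 51 tested had a base mean of 100 or more, 3 positive and 3 negative.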

Other observations

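The authors' deposited GO table holds categories on chromatin. The category nucleosome had 0 changed genes of 8, with a p of under-representation of 0.169 (adjusted 1). The category chromatin had 5 of 31 and nuclear chromatin 6 of 32, with p of over-representation of 0.334 and 0.259. The category nucleosome in that table holds fewer genes than the 59 histone genes tested here, and the rule by which the authors took genes as changed is not stated in the sources used.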
